A study of Mus musculus with 6 samples.

Results

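The 10 immediate-early genes followed here lie outside the AP-1 family and were measured in Raw264.7 macrophages after knockdown of *Etv5*: *Egr1*, *Egr2*, *Egr3*, *Ier2*, *Ier3*, *Ier5*, *Nr4a1*, *Myc*, *Phlda1* and *Srf*. They were chosen by gene symbol, and all 10 were found among the 24786 gene symbols measured. Messenger RNA was sequenced from Raw264.7, a mouse macrophage line established from an Abelson murine leukemia virus-induced tumor, transduced with a control shRNA, called sh-NC, or with one targeting *Etv5*, called sh-*Etv5*, with 3 libraries of each. Both groups were infected with lentivirus in the presence of a Lipofectamine reagent and labelled strain C57BL/6, with an age of post natal day 21 for the cell line. The labels give 24 or 48 h between infection and measurement, whereas the study describes puromycin selection and stable transfection of the sequenced cells, so the time after infection is not settled. The sources do not state which of the designed shRNAs was sequenced, nor whether replicate libraries trace to different infections, so that p-values measure the spread between libraries, which may be technical. Both groups are bulk cultures of a transformed line, in which a change in the number of expressing cells and a change in RNA per cell cannot be told apart.

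Immediate-early genes are switched on within minutes of a stimulus without the need for new protein synthesis. In the textbook circuit, the kinase ERK phosphorylates ternary complex factors of the ETS family (ELK1, ELK3, ELK4), which sit beside the serum response factor SRF on promoters with a CArG box, and many of the products are transcription factors that drive a later wave of genes. In macrophages, Toll-like receptor ligands and growth factors such as CSF1 are known inducers, and NF-κB contributes to several of these genes. ETV5 itself is an ETS factor of the PEA3 group.

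Values were deposited as RPKM, read density scaled by gene length and by library size. Levels are compared between genes on that scale, although the gene lengths behind it are not given. The RPKM of all genes summed to 320462 to 322949 in the sh-NC libraries and 330454 to 340257 in the sh-*Etv5* libraries, and the read depth behind them is unknown. *Etv5* measured 9.18, 9.89 and 9.39 RPKM across the sh-NC libraries, compared with 5.19, 4.91 and 5.28 RPKM after *Etv5* knockdown, so the groups did not overlap and the target was lower as labelled, by a log2 fold change of -0.78 in limma (adjusted p = 2.74e-07). All 9 macrophage markers examined were expressed, with 4 called higher (*Adgre1*, *Itgam*, *Cd14*, *Spi1*), 4 lower (*Csf1r*, *Cd68*, *Lyz2*, *Fcgr1*) and 1 not called (*Ptprc*). Their summed level, carried mainly by *Lyz2*, was 4490 to 4616 RPKM in sh-NC cells and 3587 to 3704 RPKM in sh-*Etv5* cells. Of 32 markers of other cell types, 31 were listed, 6 of these at 0 in every library, among them the neutrophil genes *Ly6g*, *S100a9* and *Elane*. *S100a8* was the only one of these above 1 RPKM in any library, at 0.123 to 0.491 RPKM in sh-NC cells and 15.5 to 19.7 RPKM in sh-*Etv5* cells. The other 30 together reached 1.10 to 1.63 RPKM in sh-NC cells and 2.93 to 2.95 RPKM in sh-*Etv5* cells. None of them exceeded 0.973 RPKM in any library. Some also separated by group, with both rises and falls among them, which the sum does not show. The part of these markers in the differences below was not tested.

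The immediate-early genes did not move together. At a limma adjusted p-value under 0.05, *Ier2*, *Ier3*, *Ier5*, *Nr4a1*, *Myc* and *Phlda1* were higher in sh-*Etv5* cells, *Egr2*, *Egr3* and *Srf* were lower, and *Egr1* was not called. These counts stand against a background in which 74.3% of the 10738 genes tested were called, 33.3% higher and 41% lower, so a call alone says little about a gene in this experiment. The groups were free of overlap for 9 of the 10 genes, against 76.4% of all genes tested. An absolute log2 fold change above 1 together with a call was seen for 6 of the 10 (*Egr2*, *Egr3*, *Ier3*, *Ier5*, *Myc*, *Phlda1*) and for 9.23% of all genes tested. The 10 log2 fold changes had a median of 0.57 and ran from -1.58 to 4.18, and over all genes tested the median was -0.05.

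Fold changes here are differences of log2(RPKM + 1), a scale that shrinks changes at low RPKM, and genes were tested when at least 3 of the 6 libraries reached 1 RPKM. *Egr2* and *Egr3* passed that filter through the sh-NC libraries alone and *Myc* through the sh-*Etv5* libraries alone, so a difference in these genes was built into their being tested. *Nr4a1* also needed the sh-*Etv5* libraries to pass, as 1 sh-NC library reached 1 RPKM. The same holds for *Gadd45a* (1 sh-NC library), *Mxd1* and *Cnn2* (2 each), named below. *Ier5l* needed the sh-NC libraries, as 1 sh-*Etv5* library reached 1 RPKM. The filter thus favored a difference in these genes as well. Without the filter all 10 kept the call they had with it. With 3 libraries per group the smallest two-sided p-value of an exact permutation test is 0.1, and the test gave 0.1 for each of the 9 genes without overlap and 0.9 for *Egr1*.

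The order of the genes by level changed between the groups. In sh-NC cells *Ier2* (29.6 RPKM on average), *Ier3* (26.6) and *Srf* (24.7) stood at the top with neighboring ranges that overlapped, followed by *Egr1* (19.4) and *Ier5* (13.8). *Phlda1*, *Egr3* and *Egr2* lay between 2.82 and 4.25 RPKM, where the ranges of *Egr3* and *Egr2* overlapped, and *Nr4a1* and *Myc* came last. In sh-*Etv5* cells *Ier3* (229 RPKM) and *Phlda1* (92.1) led, ahead of *Ier2* (47.5) and *Ier5* (29.4). *Srf* and *Egr1* overlapped in the middle of that order, *Myc* had moved above *Nr4a1*, and *Egr3* and *Egr2*, which overlapped, were at the bottom. The plot of RPKM by library shows these levels.

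**Figure D1:**
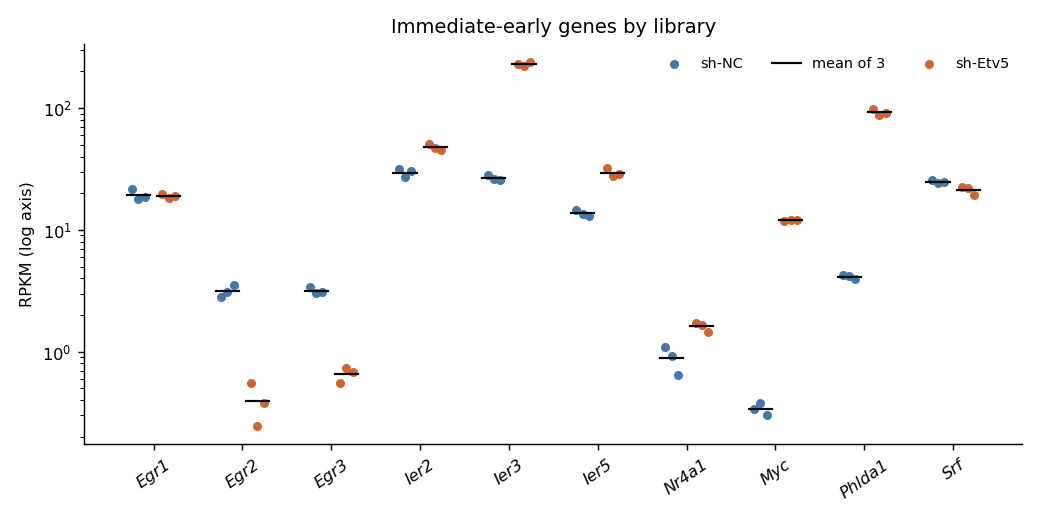
RPKM of the 10 immediate-early genes in each library, on a log axis, with 3 points per group and a black line at the mean of the group. *Egr2* and *Egr3* lie lower in all sh-*Etv5* libraries, *Ier3*, *Myc* and *Phlda1* far higher, and the groups overlap for *Egr1* alone.

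The EGR genes encode zinc-finger transcription factors that bind the same GC-rich DNA element. *Egr1* (GRCm38 chromosome 18, 34859823 to 34864984, plus strand) measured 21.5, 18.02 and 18.6 RPKM across the sh-NC libraries, compared with 19.8, 18.1 and 18.8 RPKM after *Etv5* knockdown. The groups overlapped throughout, and limma put the log2 difference at -0.03, with a 95% interval of -0.17 to 0.11 and an adjusted p of 0.685. Its sign was not settled, being 0.04 without sh-NC replicate 1.

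*Egr2* (chromosome 10, 67535475 to 67542188, plus strand), a factor also known as a marker of alternatively activated macrophages, measured 2.82, 3.07 and 3.55 RPKM across the sh-NC libraries, compared with 0.550, 0.245 and 0.380 RPKM after *Etv5* knockdown. Every sh-*Etv5* library lay below every sh-NC library, and the mean fell by 87.6%, the group means being 3.15 ± 0.368 and 0.392 ± 0.153 RPKM (SD, n = 3). Limma gave *Egr2* -1.58 ± 0.102 on the log2 scale (SE; adjusted p = 1.06e-07), which reached -3.04 with a pseudocount of 0.01. *Egr3* (chromosome 14, 70077203 to 70082614, plus strand) measured 3.38, 3.06 and 3.10 RPKM across the sh-NC libraries, compared with 0.549, 0.729 and 0.685 RPKM after *Etv5* knockdown. Its groups were likewise without overlap, and it fell by 79.4%, the group means being 3.18 ± 0.174 and 0.655 ± 0.0937 RPKM (SD, n = 3). For *Egr3* limma gave -1.34 ± 0.0798 on the log2 scale (SE; adjusted p = 5.23e-08), and -2.27 with a pseudocount of 0.01.

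The remaining paralog *Egr4* was near absent, with 0.00075 RPKM in sh-*Etv5* replicate 1 and 0 in the other 5 libraries. NAB1 and NAB2 are corepressors that bind EGR proteins, and *Nab2* is itself a known EGR target. *Nab2* measured 34.6, 37.5 and 35.8 RPKM across the sh-NC libraries, compared with 14.5, 13.4 and 13.6 RPKM after *Etv5* knockdown, a fall which limma put at -1.32 on the log2 scale (adjusted p = 9.62e-10). *Nab1* was at 14.8 ± 0.905 and 14.3 ± 0.657 RPKM (SD, n = 3), with overlapping groups (log2 fold change -0.04, limma adjusted p = 0.524). Thus *Egr2*, *Egr3* and *Nab2* were lower in sh-*Etv5* cells while *Egr1* and *Nab1* were not called.

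Promoter windows from RefSeq on GRCm38.p6, reaching from 250 bases before to 50 bases after a transcription start, were matched by symbol for 5 of the 10 genes, namely *Egr2*, *Ier3*, *Ier5*, *Nr4a1* and *Srf*. Windows for *Egr1*, *Egr3*, *Ier2*, *Myc* and *Phlda1* were not used here. A CArG box, CC and GG enclosing 6 bases of A or T, was searched on both strands and occurs in 1.63% of the 32851 windows of the table. *Egr2* had windows at several starts, some of them overlapping, and so more chances of a match than the other matched genes. *Egr2* and *Srf* were the matched genes with an exact CArG box, and both were lower in sh-*Etv5* cells. Boxes with a mismatch were not searched for, and 5 of the 10 genes were not searched at all. Whether a CArG box goes with a fall was therefore not tested. The boxes are shown with 10 bases on each side, in capitals, written 5′ to 3′ on the strand of the gene, to let the element be compared between them. For *Egr2* they lie at chr10:67537484-67537513 and chr10:67537787-67537816 (plus strand), and for *Srf* at chr17:46556225-46556254 and chr17:46556205-46556234 (minus strand).
Egr2, upstream box: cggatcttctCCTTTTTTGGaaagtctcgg
Egr2, downstream box: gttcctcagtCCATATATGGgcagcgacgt
Srf, upstream box: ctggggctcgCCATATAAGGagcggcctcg
Srf, downstream box: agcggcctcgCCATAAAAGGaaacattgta
The downstream *Egr2* box ends 63 bases before the start at 67537869, and the *Srf* boxes cover positions -82 to -73 and -62 to -53 from the start at 46556162. The upstream *Egr2* box ends 63 bases before another start, at 67537566. The 50 bases after that start occur in no annotated *Egr2* transcript. A GGAA overlaps the last bases of the upstream *Egr2* box and of the downstream *Srf* box, on the same strand. A match of letters is a description and not evidence that a factor bound there in these cells.

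*Srf* (chromosome 17, 46548329 to 46556175, minus strand) encodes the MADS-box factor that binds CArG boxes. It measured 25.6, 24.0 and 24.6 RPKM across the sh-NC libraries, compared with 22.5, 22.2 and 19.5 RPKM after *Etv5* knockdown. The groups did not overlap, but the difference was small, a fall of 13.5% between means of 24.7 ± 0.762 and 21.4 ± 1.65 RPKM (SD, n = 3), or -0.20 ± 0.0558 on the log2 scale (SE; limma adjusted p = 0.00672). In size it was exceeded by 65.3% of all genes tested. The *Srf* stretch at chr17:46556176-46556412 (minus strand) shows its CArG boxes in one promoter together with an EGR-type site (GCGGGGGCG) and a TATAAA element on the opposite strand, all in capitals.
Srf: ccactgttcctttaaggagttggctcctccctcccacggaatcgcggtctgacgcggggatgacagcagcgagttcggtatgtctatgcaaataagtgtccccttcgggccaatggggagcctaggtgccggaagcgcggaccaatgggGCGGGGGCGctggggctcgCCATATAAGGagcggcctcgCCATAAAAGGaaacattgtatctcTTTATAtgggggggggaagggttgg
GCGGGGGCG occurs in 2.91% of all windows and TATAAA in 13.6%.

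The cofactors of SRF moved in both directions. *Mkl1* and *Mkl2*, which encode the actin-regulated coactivators MRTF-A and MRTF-B, fell from 16.4 ± 0.904 to 12.1 ± 0.541 RPKM and from 3.40 ± 0.287 to 2.32 ± 0.160 RPKM (SD, n = 3; limma adjusted p = 4.61e-05 and 0.000554). Among the ternary complex factors, *Elk1* measured 6.63, 6.07 and 5.49 RPKM across the sh-NC libraries, compared with 11.3, 12.2 and 10.4 RPKM after *Etv5* knockdown, a rise of 0.80 on the log2 scale (limma adjusted p = 1.97e-06). *Elk4* fell from 6.45 ± 0.270 to 4.37 ± 0.565 RPKM (SD, n = 3; limma adjusted p = 0.000208). *Elk3* was the most abundant of the ternary complex factors, at 19.2 ± 0.340 and 18.3 ± 0.831 RPKM (SD, n = 3). The 6 libraries separated by group for *Elk3*, yet it was not called (log2 fold change -0.07, limma adjusted p = 0.191), a call that changed under another scaling.

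Of 18 symbols listed for cytoskeletal and matricellular genes known as SRF and MRTF targets, 12 were tested, of which 6 were called higher, 2 lower and 4 not called, with a median log2 fold change of 0.09. The share called, 66.7%, was below the 74.3% of all genes tested. *Acta2* reached the filter through the sh-*Etv5* libraries alone and *Tagln* through the sh-NC libraries alone, so a difference in these genes too was built into their being tested. When every library was rescaled to an equal RPKM sum, the split became 4 higher and 3 lower, so the calls of small changes in this list depended on the scaling. The largest rises were those of *Acta2*, smooth muscle actin, from 0.164 ± 0.00304 to 1.72 ± 0.235 RPKM, and *Filip1l*, from 1.504 ± 0.133 to 4.36 ± 0.306 RPKM (SD, n = 3; log2 fold changes 1.22 and 1.10). *Cnn2*, calponin, followed with 0.23 (limma adjusted p = 0.0313), and its call was lost under another scaling. *Vcl*, the focal adhesion protein vinculin, fell from 12.4 ± 0.412 to 8.08 ± 0.236 RPKM and *Tagln*, transgelin, from 1.31 ± 0.101 to 0.924 ± 0.0440 RPKM (SD, n = 3; log2 fold changes -0.56 and -0.26). *Cyr61* and *Ctgf*, widely used as reporters of this pathway in fibroblasts, and *Myl9* were listed at 0 RPKM in all 6 libraries.

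The IER symbols cover unrelated proteins. IER2 and IER5 are related nuclear proteins that share an N-terminal region, whereas IER3, also called IEX-1, is a separate small protein linked to cell survival and known to be induced by NF-κB and p53. *Ier2* (chromosome 8, 84661331 to 84662852, minus strand) measured 31.3, 26.9 and 30.4 RPKM across the sh-NC libraries, compared with 50.6, 46.8 and 45.3 RPKM after *Etv5* knockdown. All sh-*Etv5* libraries were higher, and the mean rose 1.61-fold, the group means being 29.6 ± 2.32 and 47.5 ± 2.73 RPKM (SD, n = 3). On the log2 scale limma gave 0.67 ± 0.0594 (SE; adjusted p = 1.45e-06).

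*Ier5* (chromosome 1, 155096361 to 155099636, minus strand) measured 14.6, 13.6 and 13.1 RPKM across the sh-NC libraries, compared with 31.9, 27.8 and 28.6 RPKM after *Etv5* knockdown. Its groups were well apart, and the mean rose 2.14-fold, or 1.04 ± 0.0588 on the log2 scale (SE; limma adjusted p = 3.25e-08). The paralog *Ier5l* went the other way, from 2.10, 2.19 and 2.02 RPKM to 0.914, 1.10 and 0.861 RPKM, a fall of 54.4% (log2 fold change -0.67, limma adjusted p = 1.92e-05).

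*Ier3* (chromosome 17, 35821684 to 35822923, plus strand) had the highest level of the 10 genes after knockdown. It measured 28.2, 26.1 and 25.5 RPKM across the sh-NC libraries, compared with 230.4, 219.8 and 238 RPKM after *Etv5* knockdown. The rise was 8.62-fold and far beyond the spread of the libraries, or 3.06 ± 0.0449 on the log2 scale (SE; limma adjusted p = 6.48e-13). The stretch before the first annotated base of the gene, chr17:35821463-35821683 (plus strand), is shown because it holds a κB site, the element bound by NF-κB, in capitals on the opposite strand.
Ier3: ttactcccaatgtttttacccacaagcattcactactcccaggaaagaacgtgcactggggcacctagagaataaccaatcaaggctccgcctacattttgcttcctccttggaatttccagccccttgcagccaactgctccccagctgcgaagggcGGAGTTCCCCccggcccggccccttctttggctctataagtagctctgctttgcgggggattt
The site covers positions -92 to -83 from the RefSeq start at 35821713, overlaps a GGAA on the same opposite strand, and belongs to a motif found in 4.51% of all windows. GGAA, the core of ETS sites, was present 5 times in the *Ier3* window and occurs in 96% of all windows. The longer ETS site CCGGAAGT, found in 3.89% of windows, was not matched in any window of the 5 genes, and the *Ier5* window held no searched motif other than GGAA.

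*Nr4a1* (chromosome 15, 101254269 to 101274795, plus strand) encodes the orphan nuclear receptor NUR77, which is rapidly induced in activated macrophages and T cells. It was low throughout, with 1.09, 0.924 and 0.645 RPKM across the sh-NC libraries and 1.73, 1.65 and 1.46 RPKM after *Etv5* knockdown. The groups did not overlap, and the mean rose 1.82-fold, the group means being 0.885 ± 0.223 and 1.62 ± 0.136 RPKM (SD, n = 3). On the log2 scale limma gave 0.48 ± 0.101 (SE; adjusted p = 0.00125). That value was 0.89 with a pseudocount of 0.01 and 0.30 with quantile normalization, where limma gave an adjusted p of 0.0161. *Nr4a2* was at 0.588 ± 0.0496 and 0.752 ± 0.0881 RPKM (SD, n = 3) and did not reach the filter, and in the unfiltered fit limma gave it an adjusted p of 0.0590. *Nr4a3* stayed at or below 0.0844 RPKM in every library. The *Nr4a1* stretch at chr15:101266596-101266845 (plus strand) is shown for its EGR-type site, in capitals on the opposite strand, at positions -60 to -52 from the start at 101266846. A κB site on the opposite strand runs across that start, from -3 to 7, and lies mostly outside the stretch shown.
Nr4a1: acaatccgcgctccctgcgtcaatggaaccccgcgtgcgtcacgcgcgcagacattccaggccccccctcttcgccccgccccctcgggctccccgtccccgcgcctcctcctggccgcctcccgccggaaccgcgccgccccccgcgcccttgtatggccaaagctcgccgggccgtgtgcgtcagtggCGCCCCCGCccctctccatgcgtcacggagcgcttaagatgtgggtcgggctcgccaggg

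*Myc* (chromosome 15, 61985391 to 61990374, plus strand) encodes the growth-promoting transcription factor MYC, which binds DNA as a dimer with MAX. It measured 0.340, 0.381 and 0.303 RPKM across the sh-NC libraries, compared with 11.7, 12.0 and 12.1 RPKM after *Etv5* knockdown. *Myc* thus went from the lowest of the 10 genes to the level of a moderately expressed gene, a 35.04-fold rise of the mean, or 3.27 ± 0.0644 on the log2 scale (SE; limma adjusted p = 7.42e-12), that reached 5.10 with a pseudocount of 0.01.

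*Mycn*, the paralog best known from neural tumors, was the main MYC family transcript of these cells and moved in the opposite direction. It measured 377, 364 and 368 RPKM across the sh-NC libraries, compared with 215, 205 and 196 RPKM after *Etv5* knockdown, or -0.85 ± 0.0383 on the log2 scale (SE; limma adjusted p = 5.61e-09). *Mycl* did not exceed 0.0294 RPKM in any library. *Myc* made up 0.0902%, 0.105% and 0.0822% of the summed RPKM of the MYC genes in the sh-NC libraries and 5.17%, 5.55% and 5.83% in the sh-*Etv5* libraries. The sum was 369.8 ± 6.41 RPKM with sh-NC and 217 ± 9.54 RPKM with sh-*Etv5* (SD, n = 3). Both measures were without overlap between the groups, and the exact two-sided permutation p of 0.1 for each is the smallest possible with 3 libraries per group. The rise of *Myc* was therefore smaller, in RPKM, than the loss of *Mycn*.

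The partner *Max* was not called, at 50.9 ± 0.579 and 50.7 ± 2.25 RPKM (SD, n = 3; log2 fold change -0.01, 95% confidence interval -0.10 to 0.08), and neither were the antagonists *Mxi1* (-0.01, limma adjusted p = 0.909) and *Mnt* (-0.13, limma adjusted p = 0.117). The sign for *Max* and the call for *Mnt* changed under other scalings. *Mxd1*, which encodes an antagonist that competes with MYC for MAX, rose from 1.14, 1.09 and 0.831 RPKM to 2.66, 2.59 and 2.63 RPKM, which limma put at 0.85 on the log2 scale (adjusted p = 3.16e-06). *Mxd4* and *Mlx* rose as well (0.55 and 0.61), whereas *Mxd3* (-0.30) and *Mga* (-0.41) fell. Of all 25 symbols listed as relatives and partners of the 10 genes, 18 were tested, of which 5 were called higher, 8 lower and 5 not called, with a median log2 fold change of -0.10. The share called, 72.2%, was near the 74.3% of all genes tested.

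**Figure D2:**
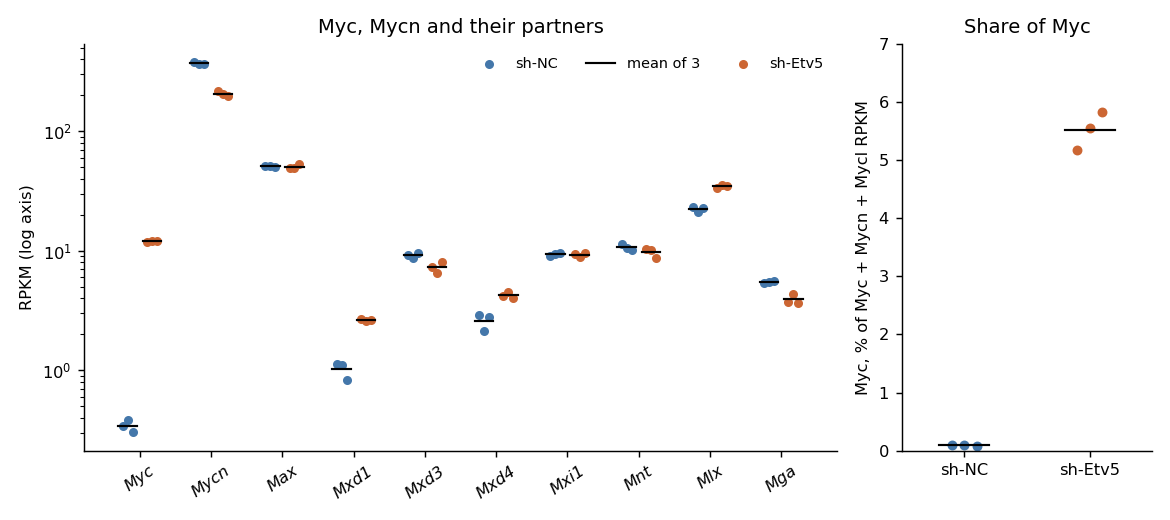
Left, RPKM of *Myc*, *Mycn*, *Max* and the related genes *Mxd1*, *Mxd3*, *Mxd4*, *Mxi1*, *Mnt*, *Mlx* and *Mga* in each library, on a log axis. Right, *Myc* as a percentage of the summed RPKM of *Myc*, *Mycn* and *Mycl*. Points are libraries and black lines are means of 3. *Mycn* stays above *Myc* in both groups, at 196 RPKM or more, while the share of *Myc* lies between 5.17% and 5.83% in the sh-*Etv5* libraries.

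A list of 16 genes widely described as raised by MYC was tested in full, and 2 were called higher, 12 lower and 2 not called, where 33.3% of all genes tested were called higher and 41% lower. The median log2 fold change of the list was -0.27, against -0.05 over all genes tested. The genes that rose were *Odc1*, the rate-limiting enzyme of polyamine synthesis, from 237 ± 3.35 to 1124 ± 9.42 RPKM, and *Ccnd2*, cyclin D2, from 2.70 ± 0.0502 to 10.6 ± 0.455 RPKM (SD, n = 3). Their log2 fold changes were 2.24 and 1.64 (limma adjusted p = 2.61e-13 and 8.65e-10). The largest falls were those of *Cad*, the enzyme that starts pyrimidine synthesis (-0.59), and of the nucleolar genes *Fbl* (-0.57) and *Ncl* (-0.42). On the log2 scale the falls of this list were smaller than that of *Mycn*, and its rises were smaller than that of *Myc*. Whether any change in this list follows from *Mycn* or *Myc* was not tested.

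*Phlda1* (chromosome 10, 111506286 to 111508645, plus strand) encodes a pleckstrin homology-like protein, also known as TDAG51, that is induced by ERK signaling and by stress. It measured 4.25, 4.16 and 3.98 RPKM across the sh-NC libraries, compared with 98.0, 87.3 and 90.9 RPKM after *Etv5* knockdown. This was the largest change of the 10 genes on the log2(RPKM + 1) scale, 22.3-fold in the mean, with a log2 fold change of 4.18 by limma (SE 0.0504, adjusted p = 1.41e-13), and it ranked 25 from the top among the 10738 genes tested. An annotated long noncoding RNA, *Gm28592*, overlaps its exons on the opposite strand, and whether reads were counted by strand is not given in the sources used here. The paralog *Phlda3*, a known p53 target, rose from 6.50, 6.53 and 6.85 RPKM to 15.9, 15.9 and 15.3 RPKM (log2 fold change 1.13, limma adjusted p = 3.88e-09). *Phlda2* was near 0 in every library. No 50-base sequence in the annotated transcripts of any of the 10 genes occurs, on the same strand, in a transcript of another gene, a share of 0%. Opposite strands were not compared, so this share does not cover the overlap with *Gm28592*.

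**Figure D3:**
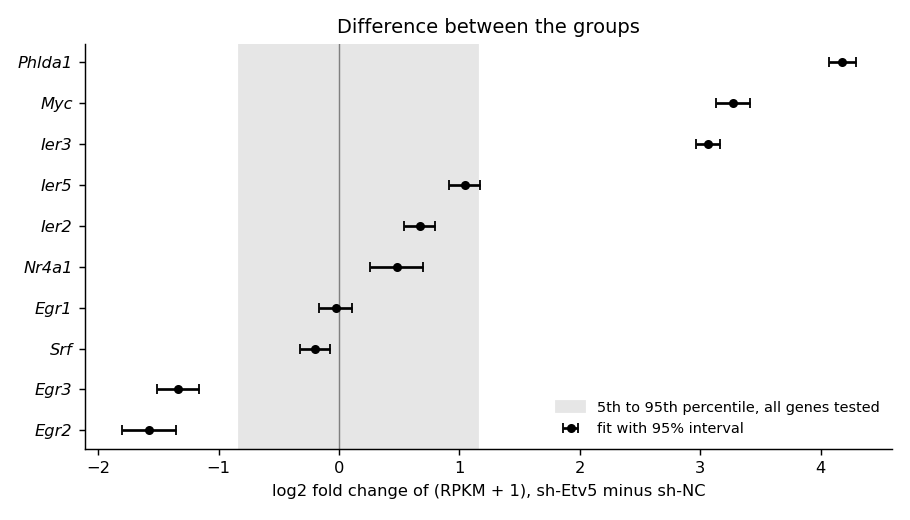
Log2 fold change of RPKM + 1, sh-*Etv5* minus sh-NC, for the 10 genes, with 95% confidence intervals of the limma fit; the gray band runs from the 5th to the 95th percentile of all genes tested (-0.83 to 1.16). *Ier3*, *Myc* and *Phlda1* lie above the band, *Egr2* and *Egr3* below it, and the interval of *Egr1* includes 0.

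Set against all genes tested, the 10 genes spread from near the bottom to near the top of the distribution. *Myc* and *Ier3* ranked 44 and 53 from the highest log2 fold change, and *Egr2* and *Egr3* ranked 74 and 125 from the lowest. *Ier5* and *Ier2* lay inside the central 90% of genes (ranks 623 and 1210 from the top), as did *Nr4a1*, *Egr1* and *Srf*. The genes nearest to each pattern over the 6 libraries, by Euclidean distance of log2(RPKM + 1), were *Plk2* for *Phlda1* (distance 0.57), *Slc15a3* for *Ier3* (0.31), *Sez6l2* for *Myc* (0.42), *Il4i1* for *Egr2* (0.33) and *Epop* for *Egr3* (0.20). For the genes with smaller changes they were *Wbp2* for *Ier2* (0.13), *Slc38a7* for *Ier5* (0.24), *Hspbap1* for *Nr4a1* (0.23), *Sbf1* for *Srf* (0.09) and *Atp2a3* for *Egr1* (0.14). Such nearness reflects a like level and a like difference between groups in these libraries only. *Sez6l2* and *Hspbap1* averaged 0.49 and 0.90 RPKM in sh-NC cells, and *Il4i1* and *Epop* 0.37 and 0.59 RPKM in sh-*Etv5* cells. Each of these needed libraries of the other group to pass the filter, which thus favored a difference in them too.

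A list of 33 other genes known to respond early to growth factors or activation, outside AP-1, held more calls upward than downward. Of its 30 tested genes, 21 were called higher, 7 lower and 2 not called, where 33.3% of all genes tested were called higher and 41% lower. The list had a median log2 fold change of 0.89 against -0.05 over all genes tested. The largest rise was that of *Ptgs2*, the inducible cyclooxygenase, from 8.51, 8.91 and 8.12 RPKM to 315, 333 and 334 RPKM (log2 fold change 5.11, limma adjusted p = 8.20e-15). *Plk2*, a polo-like kinase, rose from 4.79 ± 0.401 to 111 ± 3.01 RPKM and *Gadd45a*, a growth arrest and DNA damage gene, from 1.01 ± 0.186 to 17.4 ± 0.823 RPKM (SD, n = 3; log2 fold changes 4.27 and 3.20). The largest falls were those of *Rgs2*, a regulator of G protein signaling (-1.03), the Krüppel-like factor *Klf10* (-0.90) and *Zfp36l2*, an RNA-binding protein of the tristetraprolin family (-0.83). The plot of the lists shows these genes beside the 10.

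**Figure D4:**
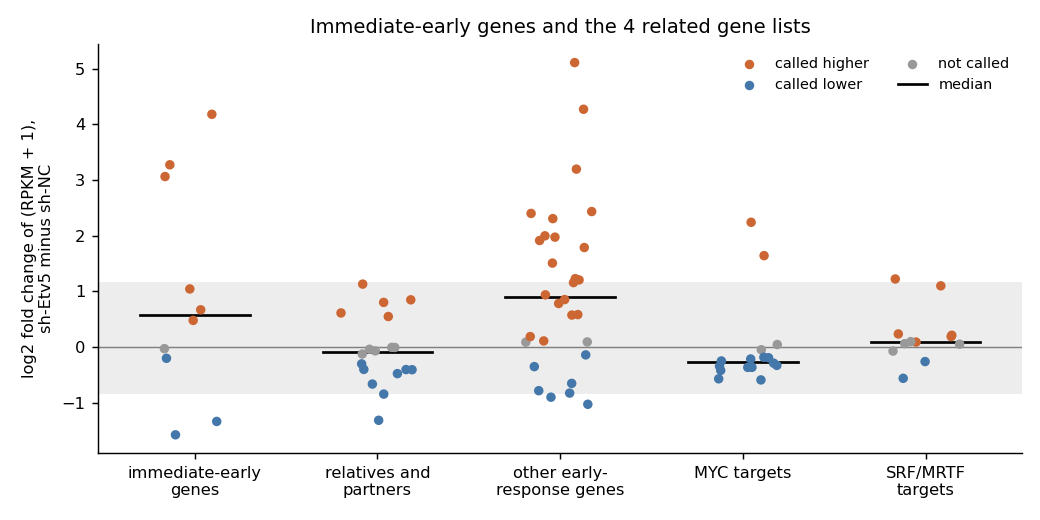
Log2 fold change of RPKM + 1, sh-*Etv5* minus sh-NC, for the 10 immediate-early genes and for the tested genes of 4 related lists; each point is a gene, colored by its call, and black lines are medians. The medians are 0.57, -0.10, 0.89, -0.27 and 0.09 from left to right, and the gray band spans the 5th to 95th percentile of all genes tested.

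Within the groups, the libraries numbered 1 tended to have the highest value of these genes. Replicate 1 was the highest of the 3 sh-NC libraries for 8 of the 10 genes and the highest of the 3 sh-*Etv5* libraries for 7 of the 10, whereas it was highest for 33.0% and 27.2% of all genes tested. With either of these libraries left out, each of the 9 called genes kept its call.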

How the data were processed

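The 6 polyA RNA libraries of Raw264.7 cells were grouped by their titles. The authors deposited RPKM values, 1 per gene symbol and library, taken from 1 coverage track per library and not log-transformed; the build was mm10 per the labels, and the aligner, counter, annotation and strand handling are not given in the sources used here. Of the low RPKM values, 36.4% to 62.7% per library fell within 0.05 of a whole multiple of a common step, so whole reads were not recovered, read depth is unknown and no counting interval is given. A gene was tested when 3 or more libraries reached 1 RPKM, and libraries were compared as log2(RPKM + 1) with limma 3.58.1 in R 4.3.3 (intensity trend, two-sided, no covariate), with Benjamini-Hochberg adjustment over all genes tested, and called under 0.05. The fit was tested on simulated data with independent noise and few changed genes, unlike these libraries, in which 74.3% of genes tested were called. That was a check of the code and does not bear on the calls given here. Coordinates are from GENCODE release M21 on GRCm38, the assembly also called mm10. Promoter windows are from RefSeq (GRCm38.p6). Python 3.11.15 and pandas 2.3.3 were used for annotation.

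The 10 genes and all lists were chosen with earlier results of these data known, and lists are described without a set test. All 10 genes and their paralogs and direct partners are named, with the 3 largest rises and falls among called genes of each other list. Of the relatives and partners, *Mxd3*, *Mxd4*, *Mlx* and *Mga* were outside that naming rule and were added after their values were seen, as were *S100a8*, *Ly6g*, *S100a9*, *Elane*, *Cyr61*, *Ctgf* and *Myl9*. For each of the 10 genes, the tested gene nearest in pattern is also named. Alternatives were other pseudocounts, filters and scalings, eBayes without trend, a replicate block, a fold threshold and each library left out.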

Additional observations from a re-analysis of the deposited data

How the results depend on the processing

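The 9 calls among the 10 genes kept their direction and their side of the threshold under each alternative in which the gene was tested, other than the fold threshold, and *Egr1* was not called under any. With a mean RPKM of at least 5, *Egr2*, *Egr3* and *Nr4a1* were no longer tested, which left 5 of 7 genes called higher and 1 lower. Of the relatives and partners 8 of 13 tested were called, and of the SRF and MRTF targets 4 of 8. Under that filter 78.2% of all genes tested were called. The sign of *Egr1* changed to 0.0053 with quantile normalization, and leaving out each library in turn gave *Egr1* values of -0.0775 to 0.0425, the highest without sh-NC replicate 1. Requiring an absolute log2 fold change above 1 left 4 of the 10 genes higher and 2 lower (*Ier2*, *Nr4a1* and *Srf* fell short of it), among 669 higher and 322 lower in all, with 2 relatives and partners, 15 other early-response genes, 2 MYC targets and 2 SRF and MRTF targets called. Over all genes tested, same-numbered libraries did not deviate together (correlations of 0.07, -0.07 and -0.04), and a replicate block in the fit left 6 of the 10 genes called higher and 3 lower, as without it, among 3539 higher and 4361 lower genes in all. Leaving out each library in turn gave log2 fold changes of -1.66 to -1.50 for *Egr2*, 3.25 to 3.29 for *Myc* and -0.24 to -0.14 for *Srf*. Depth is unknown, which limits the genes below 1 RPKM most.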
